A study of Mus musculus with 24 samples.

Results

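The 30 genes described here encode enzymes and regulators of cholesterol and fatty acid synthesis in mouse macrophages, most of them known targets of the sterol regulatory element-binding proteins (SREBPs). They were taken by gene symbol, through Ensembl identifiers matched to GENCODE M21, from the 43629 gene rows of each count file. Of the 30 genes, 18 are enzymes of the sterol arm, 4 are regulators or a sterol carrier, and 8 are enzymes of the fatty acid arm. All 30 passed the filter on low counts, which kept 12765 genes for testing.

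Marrow of wild-type C57BL/6 mice was cultured for 7 days in medium with 10% serum and CSF-1 (20 ng/mL), the growth factor that turns its cells into macrophages, and RNA of these macrophages was sequenced. CSF-1 was present in every group, the unstimulated one included. There were 4 conditions: no stimulus; lipopolysaccharide (LPS), a bacterial cell wall component sensed by TLR4; LPS together with interferon gamma (IFNg, 50 ng/mL); and interleukin 4 (IL-4, 20 ng/mL). Each was sampled after 1 h and after 18 h, which gave 8 groups of 3 libraries, 24 in all. For LPS the labels name 2 doses, 20 and 100 ng/mL, and do not tie them to samples. The series title names oxidant signalling, DNA damage and NAD+ in inflammatory macrophages; it poses no question about lipid synthesis. The labels say that the cultures were in triplicate, and whether replicates came from separate mice is not stated. The p-values thus reflect the spread between these libraries alone, and it may be technical.

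Cholesterol is built from acetyl-CoA through mevalonate, farnesyl diphosphate, squalene and lanosterol, and the last enzymes of the chain reshape lanosterol to cholesterol. SREBPs are made as membrane proteins of the endoplasmic reticulum. When sterols are scarce, SCAP escorts them to the Golgi, where 2 proteases release the part that enters the nucleus and binds promoters, often beside NF-Y and Sp1; INSIG proteins hold SCAP back when sterols are plentiful. SREBP-2, encoded by Srebf2, acts mainly on sterol genes and SREBP-1, encoded by Srebf1, mainly on fatty acid genes. In macrophages, which take up much cholesterol from outside, sterol and fatty acid synthesis is known to be remodelled by Toll-like receptor and interferon signals, and the liver X receptors (LXRs) act on the export side.

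Total counts per library ran from 4181890 to 8122945, of which 3753 to 11477 fell on the 30 genes. Levels are given as CPM (read counts scaled to a common library size, after TMM scaling), and errors on means are SDs with n = 3. All 8 macrophage markers examined (such as Csf1r, Adgre1 and Cd68) were tested. They summed to 14600 to 16400 CPM in unstimulated libraries at 18 h, 24300 to 25600 with LPS, 12500 to 12800 with LPS and IFNg and 10200 to 10600 with IL-4, and to 15300 to 19100 over the 1 h libraries. None of the 4 adipocyte markers passed the filter: they summed to 0 to 0.497 CPM, with Lep at 0 in every library. T and NK cell markers summed to at most 0.203 CPM, with Cd3e at 0 throughout, and erythroid markers to at most 0.224 CPM. The 3 endothelial markers (Pecam1, Cdh5 and Kdr; 2 of them tested) moved with the stimulus at 18 h, from 3.72 to 5.07 CPM summed in unstimulated libraries to 19.4 to 28.9 with LPS, 26.5 to 31 with LPS and IFNg and 6.67 to 11.8 with IL-4. The 5 stromal markers (1 tested, none at 0 throughout) summed to 0.169 to 0.782 CPM in unstimulated libraries at 18 h, 4.08 to 7.18 with LPS and 1.52 to 2.84 with LPS and IFNg. The 7 markers of neutrophils and their precursors (4 tested) summed to 70.3 to 114 CPM in unstimulated libraries at 18 h and 25.1 to 46.3 with LPS and IFNg, where Elane and Mpo were at 0. The 4 dendritic cell markers (2 tested, none at 0 throughout) summed to 2.03 to 2.98 CPM in unstimulated libraries at 18 h, 3.2 to 5.83 with LPS, 8.51 to 12.3 with LPS and IFNg and 2.74 to 3.47 with IL-4. B cell markers summed to at most 3.23 CPM. The part of these markers in the results was not tested. Replicate 2 of LPS at 18 h stood apart: the mean chi-square over genes was 9.25 and 11.4 when it was set against the other LPS libraries, and 2.42 between those. The IL-4 libraries at 18 h also differed among themselves, by 3.26 to 7.41 per gene. Unstimulated replicate 3 at 18 h had reads on 19108 genes and IL-4 replicate 3 at 18 h on 17808, against 15450 to 16775 in the other libraries.

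Promoters of these genes are shown first, because SREBPs act there. RefSeq promoter windows (GRCm38.p6, 250 bases before to 50 after a start site) were used for 23 of the 30 genes. The sterol element was searched as TCACNCCAC, the E-box as CACGTG, the NF-Y box as CCAAT and the Sp1 box as GGGCGG, each on both strands. A CCAAT box was present in 19 of the 23 genes (14 of 15 sterol enzymes, 3 of 3 regulators, 2 of 5 fatty acid enzymes), against 41.1% of all 27025 genes with windows. An Sp1 box was present in 19 of the 23, with the same split by arm, against 38.2% of all genes. The only window of Acaca, a fatty acid enzyme with neither box, starts at 84195188 on chromosome 11. It lies inside the gene as annotated (84129672 to 84401651). The strict sterol element was found in 1 of 23, Hmgcs1, against 1.44% of all genes, and the E-box in 4 of 23 (Hsd17b7, Dhcr7, Sc5d and Insig1), against 8.09%. A match is a run of letters and not a measured site. The stretches below run 5′ to 3′ on the strand of the gene and end before the annotated transcript. They were chosen to show the sterol element (Hmgcs1), E-boxes (Sc5d, Insig1), a gene that rose with LPS (Mvd) and a fatty acid enzyme (Fasn). Nsdhl was added as a gene with no call in any comparison with TMM scaling. Capitals mark the sterol element, the E-box and the CCAAT box, which reads ATTGG on the opposite strand; in Fasn a CCAAT and an ATTGG overlap. Their positions are chr13:119690101-119690350 (+), chr9:42264301-42264550 (-), chr8:122443423-122443672 (-), chrX:72918271-72918520 (+), chr11:120824548-120824797 (-) and chr5:28071162-28071362 (+).
Hmgcs1: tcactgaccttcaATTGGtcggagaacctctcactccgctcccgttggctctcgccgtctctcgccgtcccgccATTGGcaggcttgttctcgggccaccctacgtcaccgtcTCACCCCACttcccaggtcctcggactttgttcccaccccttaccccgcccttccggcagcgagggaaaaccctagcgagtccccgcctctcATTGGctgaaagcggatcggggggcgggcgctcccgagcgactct
Sc5d: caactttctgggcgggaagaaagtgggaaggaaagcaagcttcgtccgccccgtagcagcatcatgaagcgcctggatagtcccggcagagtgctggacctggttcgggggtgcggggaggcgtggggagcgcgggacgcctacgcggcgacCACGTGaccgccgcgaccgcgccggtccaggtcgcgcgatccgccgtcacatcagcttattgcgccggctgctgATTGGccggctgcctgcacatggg
Mvd: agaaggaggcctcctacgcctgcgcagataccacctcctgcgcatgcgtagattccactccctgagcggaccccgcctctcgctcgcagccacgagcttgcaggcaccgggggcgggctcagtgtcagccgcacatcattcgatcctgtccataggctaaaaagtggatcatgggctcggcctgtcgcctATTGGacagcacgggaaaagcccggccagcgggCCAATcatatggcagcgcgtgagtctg
Nsdhl: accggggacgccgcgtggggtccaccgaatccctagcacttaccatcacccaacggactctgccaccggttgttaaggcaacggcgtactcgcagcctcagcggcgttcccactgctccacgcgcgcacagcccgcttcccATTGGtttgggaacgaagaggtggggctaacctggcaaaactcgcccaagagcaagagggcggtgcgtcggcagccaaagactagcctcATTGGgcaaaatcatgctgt
Fasn: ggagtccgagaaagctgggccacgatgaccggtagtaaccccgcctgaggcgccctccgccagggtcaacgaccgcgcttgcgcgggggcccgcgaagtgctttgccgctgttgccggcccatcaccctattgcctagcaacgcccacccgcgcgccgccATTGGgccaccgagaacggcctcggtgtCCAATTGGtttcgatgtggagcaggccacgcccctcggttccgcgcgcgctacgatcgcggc
Insig1: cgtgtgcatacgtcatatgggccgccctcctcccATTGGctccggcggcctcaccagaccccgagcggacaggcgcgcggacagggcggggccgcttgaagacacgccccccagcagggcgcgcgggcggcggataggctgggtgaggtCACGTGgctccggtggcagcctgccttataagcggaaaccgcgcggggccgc
Of the 19 genes with a CCAAT box, 14 fell, 1 rose and 4 did not pass the test with LPS at 18 h; all 4 genes without the box fell. Over all tested genes 31.3% fell and 31.7% rose in that comparison (63% called in all). Mvd and Nsdhl thus carry the same box as Hmgcs1, Sc5d and Fasn, whose RNA fell.

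Per kilobase of exon, Fdft1 (35.2 CPM per kb) and Acly (34.2) were the highest of the 30 genes in unstimulated cells at 18 h, followed by Fads1 (22.5), and Scd1 was the lowest (0.472). The rank of Fdft1 is uncertain, as Ctsb on the opposite strand covers 18.3% of its exons and the strand setting of the counting is not given. Together the 30 genes held 1363 ± 22.2 CPM in unstimulated cells at 18 h. This sum was 814 ± 31.7 with LPS, 778 ± 11.6 with LPS and IFNg, and 1286 ± 9.02 with IL-4. At 1 h it lay between 1241 ± 15.7 with IL-4 and 1303 ± 20.9 in unstimulated cells, with 1285 ± 12.9 for LPS and 1297 ± 18 for LPS with IFNg. Of the 8 group means of each gene, the lowest was in LPS with IFNg at 18 h for 18 genes and in LPS at 18 h for 7. The highest was in unstimulated cells at 18 h for 15. These orders were not counted over all genes, of which 36.1% were called lower and 36% higher with LPS and IFNg at 18 h. In these bulk libraries, fewer cells with a transcript and less of it per cell cannot be told apart.

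**Figure D1:**
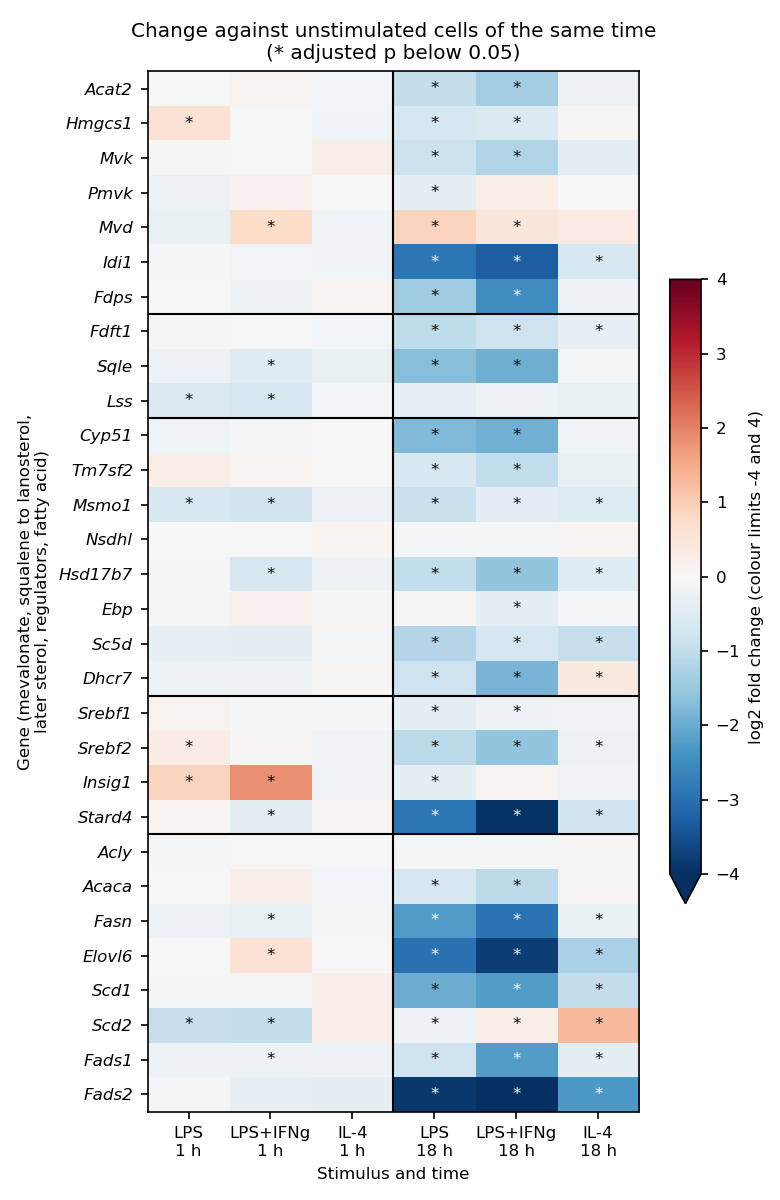
Heat map of the log2 fold change of each of the 30 genes (rows, ordered by role) against unstimulated cells of the same time (columns: LPS, LPS with IFNg and IL-4 at 1 h, then at 18 h); asterisks mark an adjusted p below 0.05, and colours stop at -4 and 4. Blue fills most rows of the LPS columns at 18 h, where 25 and 23 of the 30 genes fell, against 31.3% and 36.1% of all tested genes. Scd2 is the strongest red entry under IL-4 at 18 h (1.29).

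Fold changes below are on the log2 scale with their standard error, and a gene is said to rise or fall where edgeR's quasi-likelihood test gave an adjusted p below 0.05 over all 12765 genes (Benjamini-Hochberg). With LPS at 18 h, 25 of the 30 genes fell and 1 rose; among all tested genes 63% were called, 31.3% lower and 31.7% higher. With LPS and IFNg at 18 h, 23 fell and 2 rose, against 36.1% and 36% of all genes (72% called in all). Under library-size scaling the counts were 1 higher and 29 lower with LPS, and 0 higher and 28 lower with LPS and IFNg. Both comparisons share the unstimulated libraries. Without LPS replicate 2 and IL-4 replicate 2 at 18 h, 25 genes were called with LPS; without replicate 3 of unstimulated cells and of IL-4 at 18 h, 25 were called with LPS and 25 with LPS and IFNg. The sterol enzymes gave 14 lower and 1 higher of 18 in each, with a median of -0.87 for LPS and -0.90 for LPS with IFNg. The fatty acid enzymes gave 7 lower of 8 with LPS (median -1.40), and 6 lower and 1 higher with LPS and IFNg (median -2.24). The median over all tested genes was 0.01 and 0 in these comparisons. Scaling by library size alone moved the median of all genes to -0.41 with LPS and -0.54 with LPS and IFNg at 18 h, and the all-gene calls from 4043 higher and 3997 lower to 2076 and 6975, and from 4591 and 4606 to 2461 and 7603. The median of the 30 genes lay 0.88 and 1.12 below those shifted medians.

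**Figure D2:**
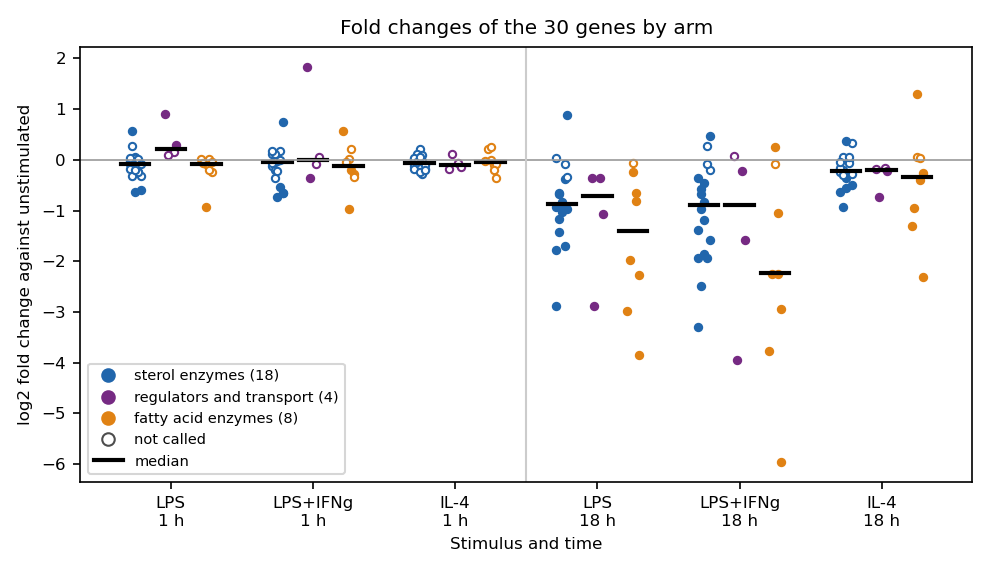
Log2 fold change against unstimulated cells (vertical axis) of each gene, by stimulus and time (horizontal axis) and coloured by arm: 18 sterol enzymes, 4 regulators and transport genes, 8 fatty acid enzymes. Filled points were called, open points were not, and black bars are the medians of each arm, which are near 0 at 1 h and lowest for the fatty acid enzymes with LPS and IFNg at 18 h (-2.24); the lowest point there, Fads2, rests on 2 counts.

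Of the 7 enzymes that make and use mevalonate, 6 fell and Mvd rose with LPS at 18 h, where 31.3% of all genes fell and 31.7% rose. With LPS and IFNg 5 fell and Mvd rose (-0.08 for Mvd under library-size scaling), where 36.1% of all genes fell and 36% rose. Idi1, which isomerises isopentenyl diphosphate, was at 20.8, 22 and 16.3 CPM in unstimulated libraries at 18 h, at 3.37, 1.67 and 2.83 with LPS and at 1.86, 2.27 and 1.89 with LPS and IFNg. Every library of both LPS groups lay under every unstimulated one, and the LPS groups overlapped. Its log2 change was -2.88 ± 0.22 (adjusted p = 1.6e-13) with LPS, a 7.34-fold drop, and -3.29 ± 0.23 (adjusted p = 8.4e-15) with LPS and IFNg, a 9.77-fold drop. Fdps, which makes farnesyl diphosphate, was at 37.7, 36.9 and 36.6 CPM without stimulus, 13.8, 11.4 and 16.1 with LPS and 7.44, 6.44 and 5.86 with LPS and IFNg. The 3 groups were separate, in that order. Fdps fell by 1.42 ± 0.13 (adjusted p = 2.8e-11) and by 2.48 ± 0.15 (adjusted p = 2.3e-16).

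Hmgcs1, the synthase that condenses acetyl units ahead of mevalonate, went from 49.2 ± 5.09 CPM to 30.8 ± 4.31 with LPS (-0.67 ± 0.11, adjusted p = 4.7e-06) and 33.1 ± 3.91 with LPS and IFNg (-0.58 ± 0.11, adjusted p = 2.7e-05). The thiolase Acat2 changed by -0.94 and -1.39, and the kinase Mvk by -0.85 and -1.20, all called. Mvd, the decarboxylase between them and Idi1, went the other way: 10.0 ± 1.27 CPM without stimulus, 18.6 ± 3.1 with LPS (0.89 ± 0.15, adjusted p = 7.6e-06) and 13.8 ± 1.51 with LPS and IFNg (0.46 ± 0.16, adjusted p = 0.012). The latter rise turned to -0.08 when libraries were scaled by size alone, and its call was lost without unstimulated replicate 2 or LPS with IFNg replicate 3 (0.37, adjusted p = 0.065 to 0.069). Pmvk, the second kinase, fell with LPS (-0.39 ± 0.16, adjusted p = 0.038), a call that was lost without unstimulated replicate 2 or 3 or LPS replicate 1 or 3 (-0.40 to -0.26, adjusted p = 0.057 to 0.21). With LPS and IFNg Pmvk stood at 0.27 (adjusted p = 0.096).

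**Figure D3:**
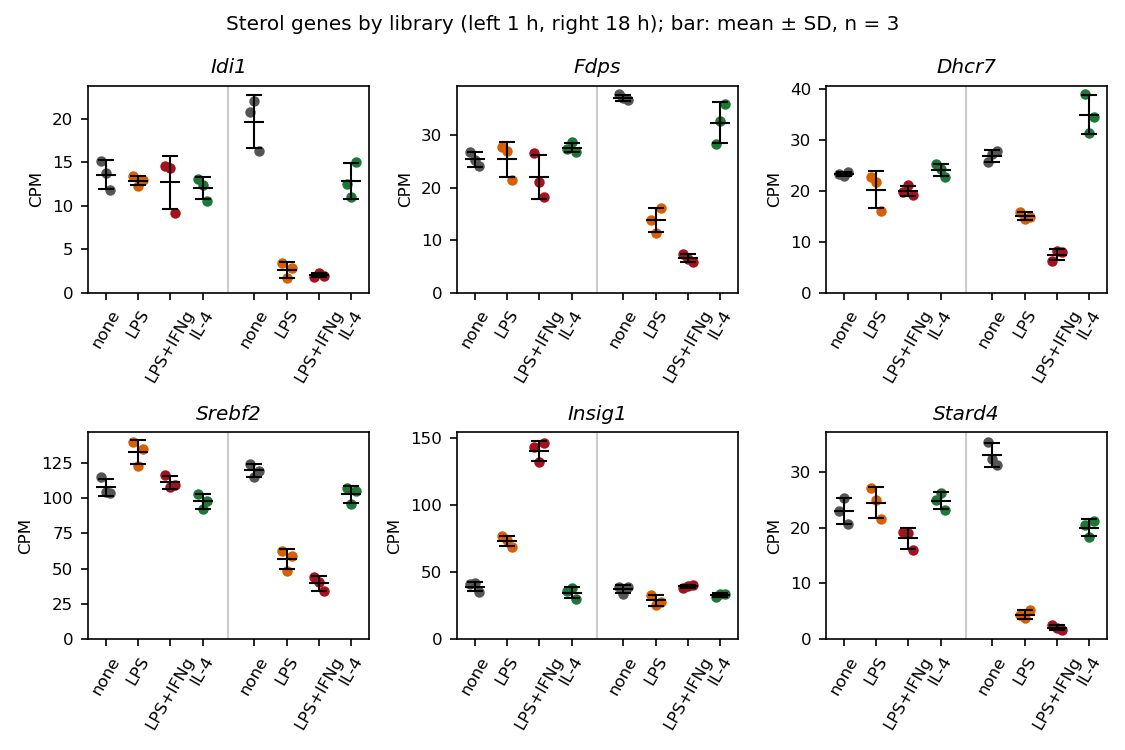
Level in CPM (vertical axis, from 0) of Idi1, Fdps, Dhcr7, Srebf2, Insig1 and Stard4 in each of 24 libraries, by stimulus (horizontal axis), with 1 h to the left and 18 h to the right of the line; points are libraries, and bars are the mean ± SD of 3. Stard4 falls from 31.1 to 35.3 CPM without stimulus to at most 2.48 CPM with LPS and IFNg at 18 h, while Insig1 peaks at 132 to 146 CPM with LPS and IFNg at 1 h.

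From squalene onward the falls were uneven. Sqle, the squalene epoxidase, was at 33.5, 41.5 and 36.4 CPM in unstimulated libraries at 18 h, 12.4, 12.3 and 9.82 with LPS and 7.91, 11 and 10.4 with LPS and IFNg. Cyp51, the lanosterol demethylase, was at 36.4, 36 and 33 CPM without stimulus, at 10.5, 11.4 and 8.88 with LPS and at 8.22, 10.2 and 9.27 with LPS and IFNg. For both genes the LPS groups lay far under the unstimulated libraries and overlapped with each other. Sqle changed by -1.69 ± 0.14 (adjusted p = 3.5e-12) with LPS and -1.94 ± 0.15 (adjusted p = 1e-13) with LPS and IFNg. Cyp51 changed by -1.78 ± 0.14 (adjusted p = 3.8e-13) and -1.93 ± 0.14 (adjusted p = 3e-14). Fdft1, the squalene synthase, went from 149 ± 6.34 CPM to 73.2 ± 6.03 with LPS and 83.9 ± 5.63 with LPS and IFNg (-1.02 and -0.83, both called). On the opposite strand Ctsb covers 18.3% of the Fdft1 exons, and the strand setting of the counting is not given in the sources used here, so Fdft1 levels are uncertain. Genes on the opposite strand also cover 12.1% of the exons of Hmgcs1, 9.22% of Idi1, 3.76% of Cyp51 and 3.53% of Lss, and Fdps, Tm7sf2, Srebf1 and Scd2 each overlap a gene on their own strand. Lss, the lanosterol synthase, did not pass the test in the main fit with LPS (-0.34 with an interval of -0.68 to 0.00). Nor did it with LPS and IFNg (-0.20 with -0.53 to 0.13). Lss was called with LPS when LPS replicate 1 was left out (-0.42, adjusted p = 0.048). Under library-size scaling all 30 genes, Lss included, were called with LPS, where the median of all genes was -0.41.

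Hsd17b7, a ketosteroid reductase of the pathway, was at 12.7, 11.5 and 11.4 CPM without stimulus at 18 h, 6.39, 5.41 and 6.23 with LPS and 3.57, 3.22 and 5.11 with LPS and IFNg. Dhcr7, the reductase that completes cholesterol, was at 25.5, 27.1 and 27.8 CPM without stimulus, at 15.8, 14.4 and 14.9 with LPS and at 6.2, 8.14 and 7.94 with LPS and IFNg. For both genes the 3 groups did not overlap. The changes were -0.97 ± 0.18 (adjusted p = 2.3e-05) and -1.58 ± 0.20 (adjusted p = 1e-08) for Hsd17b7. For Dhcr7 they were -0.83 ± 0.12 (adjusted p = 4.2e-07) and -1.86 ± 0.14 (adjusted p = 4.8e-14). Sc5d, the sterol desaturase, changed by -1.16 and -0.68, the methylsterol oxidase Msmo1 by -0.88 and -0.47, and the reductase Tm7sf2 by -0.65 and -0.98, all called. The Tm7sf2 call for LPS was lost without LPS replicate 1 (-0.52, adjusted p = 0.075). Ebp, the sterol isomerase, fell with LPS and IFNg (-0.36 ± 0.11, adjusted p = 0.0027) and was at 0.04 with LPS (adjusted p = 0.75), a value that turned to -0.38 under library-size scaling. Nsdhl, a sterol dehydrogenase, had group means of 15.9 to 17.6 CPM in the 8 groups and was called in none of the 14 comparisons with TMM scaling, but it was lower at 18 h under library-size scaling (-0.51 with LPS and -0.62 with LPS and IFNg), within 0.10 of the shifted median of all genes.

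Of the 4 regulators and transport genes, all fell with LPS at 18 h, and Insig1 alone was not called with LPS and IFNg. Over all genes 31.3% fell in the first comparison and 36.1% in the second. Srebf2 was at 124, 115 and 119 CPM in unstimulated libraries at 18 h, 62.1, 48.5 and 58.9 with LPS and 44.4, 40.4 and 34 with LPS and IFNg. The 3 groups were separate. The change was -1.07 ± 0.09 (adjusted p = 1.3e-12) with LPS, 2.11-fold lower, and -1.59 ± 0.09 (adjusted p = 7.2e-17) with LPS and IFNg, 3.0-fold lower. Srebf1 was at 84, 82.8 and 82.2 CPM without stimulus, at 63.2, 67.3 and 65.2 with LPS and at 79.9, 67.4 and 67.3 with LPS and IFNg. All 6 stimulated libraries lay under the unstimulated ones, with a difference of -0.35 ± 0.08 (adjusted p = 0.00021) with LPS and -0.21 ± 0.08 (adjusted p = 0.014) with LPS and IFNg. The latter call was lost without LPS with IFNg replicate 2 or 3 (-0.17, adjusted p = 0.079 to 0.081). Reads on Srebf1 do not separate its isoforms here, and 1.93% of its exons lie opposite Rai1.

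Stard4, a carrier that moves sterol between membranes, fell in both LPS groups. It was at 35.3, 32.3 and 31.1 CPM without stimulus at 18 h, 4.26, 3.75 and 5.29 with LPS and 2.48, 2.08 and 1.7 with LPS and IFNg. Stard4 was thus 7.37-fold lower with LPS (-2.88 ± 0.15, adjusted p = 7.6e-18) and 15.4-fold lower with LPS and IFNg (-3.95 ± 0.17, adjusted p = 2.6e-20). Insig1, the retention protein of the SREBP machinery and itself a target, was at 38.9, 34 and 38.9 CPM without stimulus, 33.2, 25.6 and 28 with LPS and 38.1, 39.6 and 40.5 with LPS and IFNg. It fell with LPS (-0.36 ± 0.10, adjusted p = 0.0034). With LPS and IFNg it was 0.08 (interval -0.13 to 0.29, adjusted p = 0.48), and -0.46 under library-size scaling.

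Of the 8 fatty acid enzymes, 7 fell with LPS at 18 h, where 31.3% of all genes fell. With LPS and IFNg 6 fell and Scd2 was called higher (-0.29, lower, under library-size scaling), where 36.1% of all genes fell and 36% rose. Acly, which makes cytosolic acetyl-CoA for both arms, had group means of 166 to 187 CPM and was called in none of the 14 comparisons with TMM scaling; under library-size scaling it was lower at 18 h (-0.48 with LPS and -0.61 with LPS and IFNg), within 0.10 of the shifted median of all genes. Acaca, the carboxylase that makes malonyl-CoA, was at 30.9, 33.4 and 28.5 CPM without stimulus at 18 h, 21.5, 18.1 and 19.1 with LPS and 14.9, 15.3 and 14.4 with LPS and IFNg. Its change was -0.66 ± 0.11 (adjusted p = 3.5e-06) and -1.06 ± 0.11 (adjusted p = 4.1e-10), and the 3 groups were separate. Fasn, the fatty acid synthase, was at 102, 111 and 85.1 CPM without stimulus, at 22.7, 16.2 and 22.1 with LPS and at 13.2, 12.7 and 12.9 with LPS and IFNg. The 3 groups were separate. The Fasn change was -2.28 ± 0.11 (adjusted p = 2.6e-18) with LPS, 4.85-fold lower, and -2.94 ± 0.12 (adjusted p = 7e-21) with LPS and IFNg, 7.68-fold lower.

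Elovl6, the elongase that extends palmitate, was at 12.5, 9.98 and 9.7 CPM without stimulus at 18 h, 0.71, 1.25 and 2.08 with LPS and 0.775, 0.947 and 0.567 with LPS and IFNg. It fell by 7.9-fold and 13.7-fold (-2.98 ± 0.24, adjusted p = 9.2e-13, and -3.77 ± 0.27, adjusted p = 1.7e-14). These folds rest on 21 counts over 3 libraries with LPS and 13 over 3 with LPS and IFNg. Fads1, a front-end desaturase of polyunsaturated fatty acids, was at 108, 109 and 108 CPM without stimulus, 62.9, 54.6 and 66.7 with LPS and 21.1, 23.7 and 24.2 with LPS and IFNg. The 3 Fads1 groups were far apart, with changes of -0.82 ± 0.08 (adjusted p = 3.7e-11) and -2.24 ± 0.09 (adjusted p = 1.2e-21). Fads2, the desaturase encoded next to it on chromosome 19 (Fads1 at 10182888 to 10196877 on the plus strand and Fads2 at 10062765 to 10101746 on the minus strand, GRCm38), was lower still. Its mean was 8.57 ± 0.107 CPM without stimulus and 0.568 ± 0.172 with LPS (-3.86 ± 0.32, adjusted p = 1.6e-12). With LPS and IFNg it had 2 counts over 3 libraries, against 163 in unstimulated ones, a ratio of 72.9 (exact 95% interval 19.9 to 607, counting error only).

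Scd1 and Scd2 encode stearoyl-CoA desaturases, which make monounsaturated fatty acids. Scd1 was low throughout, at 2.31 ± 0.321 CPM without stimulus at 18 h, 0.591 ± 0.39 with LPS and 0.493 ± 0.308 with LPS and IFNg, and it fell (-1.98 ± 0.48, adjusted p = 0.00059, and -2.25 ± 0.49, adjusted p = 0.00013). Scd2 was at 65.3, 70.7 and 65.2 CPM without stimulus, 57.5, 49.8 and 62.3 with LPS and 79.7, 80.9 and 77.9 with LPS and IFNg. Scd2 thus fell slightly with LPS (-0.24 ± 0.09, adjusted p = 0.014), a call lost without unstimulated replicate 2 or LPS replicate 2 (-0.20 to -0.16, adjusted p = 0.076 to 0.11). It rose with LPS and IFNg (0.24 ± 0.08, adjusted p = 0.0099) by the TMM scaling but was lower (-0.29, adjusted p = 0.0036) under library-size scaling, 0.25 above the shifted median of all genes. Scd1 and Scd2 are close paralogs on chromosome 19, and how reads shared by them were counted is not given in the sources used here.

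**Figure D4:**
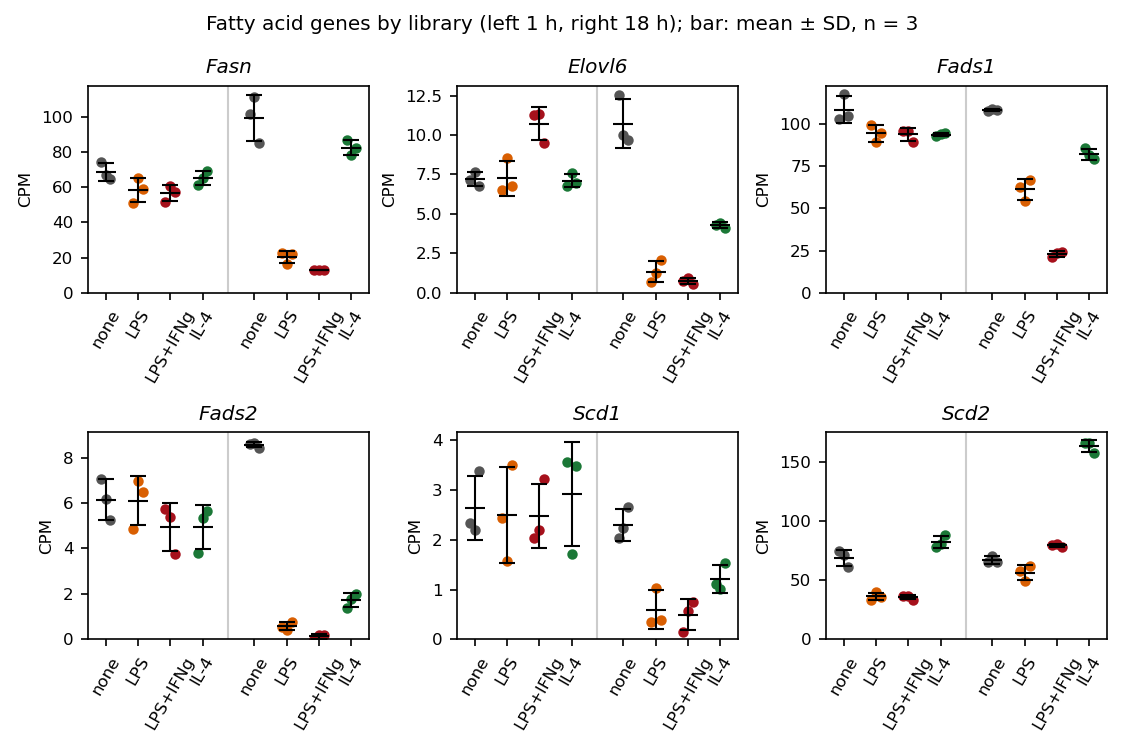
Level in CPM (vertical axis, from 0) of Fasn, Elovl6, Fads1, Fads2, Scd1 and Scd2 in each library, by stimulus (horizontal axis), 1 h to the left and 18 h to the right of the line; points are libraries, and bars are the mean ± SD of 3. Scd2 stands at 158 to 167 CPM with IL-4 at 18 h, above every other group, while Fads1 with LPS and IFNg at 18 h is at 21.1 to 24.2 CPM.

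Adding IFNg to LPS was compared directly. At 18 h, 11 of the 30 genes were lower and 5 higher than with LPS alone, against 23.4% and 23.9% of all genes (47.3% called in all). The genes that were lower still included Fads1 (-1.42 ± 0.09, adjusted p = 6.5e-15), Fdps (-1.06 ± 0.18, adjusted p = 6.5e-06), Dhcr7 (-1.03 ± 0.15, adjusted p = 1e-06), Stard4 (-1.07 ± 0.26, adjusted p = 0.00078), Fasn (-0.66 ± 0.15, adjusted p = 0.00036) and Srebf2 (-0.51 ± 0.10, adjusted p = 4.9e-05). Ebp differed by -0.41, also called lower. The Acaca difference (-0.40) lost its call without LPS replicate 1 (-0.32, adjusted p = 0.058). Higher with IFNg were Pmvk (0.66 ± 0.16, adjusted p = 0.0009), Scd2 (0.49 ± 0.09, adjusted p = 1.6e-05), Insig1 (0.44 ± 0.11, adjusted p = 0.00082) and Msmo1 (0.42 ± 0.11, adjusted p = 0.0015). Sc5d was higher (0.48), a call lost without LPS with IFNg replicate 1 or 3 or LPS replicate 1 (0.38 to 0.47, adjusted p = 0.052 to 0.11). Mvd was lower (-0.43), a call lost without LPS with IFNg replicate 1 or 2 or LPS replicate 2 (-0.40 to -0.30, adjusted p = 0.066 to 0.14). The Hsd17b7 difference (-0.61) was lost without LPS with IFNg replicate 1 or 2 or LPS replicate 1 or 3 (-0.59 to -0.50, adjusted p = 0.065 to 0.11). Fads2 had 9 counts with LPS and 2 with IFNg added, a ratio of 4.87 (exact 95% interval 1.01 to 46.3), and its call (adjusted p = 0.044) was lost in 5 of 6 fits without a library (adjusted p = 0.052 to 0.21).

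Idi1, Sqle, Cyp51 and Elovl6, which were among the genes that fell most, did not pass the test between the LPS groups at 18 h. Their differences were -0.41 (interval -1.15 to 0.33), -0.25 (-0.63 to 0.13), -0.16 (-0.53 to 0.21) and -0.79 (-1.70 to 0.13).

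Under each stimulus fewer of the genes, and fewer of all tested genes, were called at 1 h than at 18 h. The counts at 1 h follow. With LPS 3 rose and 3 fell, against 10.7% and 11.4% of all genes (22.1% called in all), and under library-size scaling 2 rose and 12 fell, where 897 and 3540 of all 12765 genes did. Insig1 was at 40.9, 41.7 and 35.1 CPM in unstimulated libraries at 1 h, 76.8, 74 and 69 with LPS and 143, 132 and 146 with LPS and IFNg. The 3 groups were separate and in rising order. Insig1 thus rose 1.86-fold with LPS (0.90 ± 0.10, adjusted p = 2.2e-09) and 3.56-fold with LPS and IFNg (1.83 ± 0.09, adjusted p = 3e-18). The step between them was 0.94 ± 0.09 (adjusted p = 2e-10). Hmgcs1 rose with LPS, from 48.7 ± 5.43 to 72.7 ± 5.47 CPM (0.58 ± 0.10, adjusted p = 5.7e-05), and was at 48.2 ± 3.62 CPM with LPS and IFNg, lower than with LPS alone (-0.60 ± 0.11, adjusted p = 7.1e-05).

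Srebf2 was at 114, 104 and 103 CPM without stimulus at 1 h and 139, 123 and 135 with LPS (0.30 ± 0.08, adjusted p = 0.0076). That call was lost without LPS replicate 1 (0.25, adjusted p = 0.069) and under library-size scaling (0.11, adjusted p = 0.35). Scd2 fell in both LPS groups at 1 h, from 74.7, 71 and 61.3 CPM to 33.5, 39.9 and 35.5 with LPS (-0.93 ± 0.09, adjusted p = 6.1e-10) and 36.5, 36.4 and 33.5 with LPS and IFNg (-0.97 ± 0.09, adjusted p = 1e-10). Msmo1 fell likewise (-0.63 ± 0.10, adjusted p = 6.7e-06, and -0.73 ± 0.10, adjusted p = 2.1e-07). Lss fell with LPS (-0.59 ± 0.18, adjusted p = 0.013), a call lost without unstimulated replicate 1 or LPS replicate 2 (-0.51, adjusted p = 0.074 to 0.077).

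With LPS and IFNg at 1 h, 3 of the 30 genes rose and 8 fell, against 14.7% and 14.6% of all genes (29.3% called in all). Under library-size scaling 2 rose and 18 fell, where 1087 and 5247 of all 12765 genes did, and without replicate 3 of LPS with IFNg only 7 genes were called. Mvd rose to 14.3 ± 1.91 CPM from 8.4 ± 1.5 (0.74 ± 0.17, adjusted p = 0.00053), and was at 6.78 ± 1.32 with LPS alone. Elovl6 was at 7.18, 7.63 and 6.75 CPM without stimulus and 11.3, 11.3 and 9.5 with LPS and IFNg (0.57 ± 0.17, adjusted p = 0.0089; 0.30, adjusted p = 0.14, under library-size scaling). Sqle fell (-0.53 ± 0.13, adjusted p = 0.0016). The other 5 falls were no longer called without certain single libraries. Lss (-0.65) lost its call without LPS with IFNg replicate 1 (-0.47, adjusted p = 0.055). Hsd17b7 (-0.65) lost it without unstimulated replicate 1 or LPS with IFNg replicate 3 (-0.54 to -0.46, adjusted p = 0.055 to 0.1). Stard4 (-0.35) lost it without unstimulated replicate 1 or 2 or LPS with IFNg replicate 3 (-0.35 to -0.27, adjusted p = 0.059 to 0.16). Fasn (-0.28) lost it without unstimulated replicate 1 or 2 or LPS with IFNg replicate 1 or 3 (-0.30 to -0.22, adjusted p = 0.053 to 0.18). Fads1 (-0.21) lost it without unstimulated replicate 2 or LPS with IFNg replicate 1 or 3 (-0.23 to -0.14, adjusted p = 0.053 to 0.22).

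Compared directly with LPS at 1 h, IFNg added 3 higher and 3 lower genes, against 6.52% and 5.26% of all genes (11.8% called in all), and 2 higher and 5 lower under library-size scaling. Mvd (1.06 ± 0.19, adjusted p = 5.5e-05) and Insig1 were higher and Hmgcs1 lower, as given above. The other 3 calls did not hold when single libraries were left out. Elovl6 (0.56) was lost without LPS with IFNg replicate 1 or 2 or LPS replicate 1 or 3 (0.49 to 0.52, adjusted p = 0.12 to 0.17). Stard4 (-0.44) was lost without LPS with IFNg replicate 3 or LPS replicate 1 (-0.36 to -0.35, adjusted p = 0.11 to 0.14). Srebf2 (-0.25) was lost without LPS with IFNg replicate 1, 2 or 3 or LPS replicate 1 or 3 (-0.29 to -0.20, adjusted p = 0.056 to 0.27).

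Whether the responses at 18 h differed from those at 1 h was tested by an interaction contrast. The LPS response was lower at 18 h for 22 of the 30 genes and higher for 2, against 27.1% and 27.1% of all genes (54.2% called in all). For LPS with IFNg the counts were 21 lower and 1 higher, against 32.1% and 31.7% (63.9% called in all). The genes Hmgcs1, Srebf2 and Insig1 went from a rise at 1 h to a fall at 18 h under LPS, the Srebf2 rise not being called under library-size scaling. The difference between times was -1.25 ± 0.15 (adjusted p = 2.5e-08) for Hmgcs1, -1.38 ± 0.12 (adjusted p = 1.7e-11) for Srebf2 and -1.26 ± 0.14 (adjusted p = 3.3e-09) for Insig1. With LPS and IFNg, Insig1 changed from 1.83 at 1 h to 0.08 at 18 h (-1.75 ± 0.13, adjusted p = 2.9e-13), and Elovl6 from 0.57 to -3.77 (-4.34 ± 0.33, adjusted p = 1.7e-13). Scd2 went the opposite way, its response being higher at 18 h than at 1 h with LPS (0.69 ± 0.13, adjusted p = 2.9e-05) and with LPS and IFNg (1.21 ± 0.12, adjusted p = 2.7e-10). Mvd was the other gene with a higher LPS response at 18 h (1.20 ± 0.25, adjusted p = 0.00014). The Tm7sf2 difference for LPS (-0.93) was no longer called without unstimulated 1 h replicate 1 or LPS 1 h replicate 2 (-0.74 to -0.68, adjusted p = 0.058 to 0.092).

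With IL-4 at 1 h none of the 30 genes was called by edgeR, against 6.43% of all genes (3.22% higher and 3.21% lower); 4 had an unadjusted p below 0.05, DESeq2 called 0 and limma-voom 0. With the replicate number as a block, edgeR called 1 gene, Scd2 (0.25, adjusted p = 0.049). Scd2 was also called without unstimulated replicate 1 (0.31, adjusted p = 0.041) and Msmo1 without unstimulated replicate 2 (-0.33, adjusted p = 0.031). At 18 h, 2 rose and 12 fell, against 19.1% and 20.1% of all genes (39.2% called in all), with medians of -0.22 in the sterol and -0.34 in the fatty acid arm. Without replicate 3 of both groups 12 genes were called. Scd2 was at 166, 167 and 158 CPM with IL-4 at 18 h, above the 65.3, 70.7 and 65.2 of unstimulated libraries and the highest of the 8 groups. Its rise was 2.44-fold (1.29 ± 0.08, adjusted p = 6.2e-15), and the IL-4 response was larger at 18 h than at 1 h (1.04 ± 0.11, adjusted p = 1.6e-08). At 1 h Scd2 had been at 78.6, 80.4 and 88.3 CPM (0.25, adjusted p = 0.066). Dhcr7 was the other gene that rose, to 38.9, 31.3 and 34.4 CPM (0.37 ± 0.10, adjusted p = 0.0047).

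Of the 8 fatty acid enzymes, Fads2 had 1.72 ± 0.302 CPM with IL-4 at 18 h (-2.31 ± 0.23, adjusted p = 6.4e-10, 4.95-fold lower), and its neighbour Fads1 was at 85.5, 81.4 and 79.2 CPM (-0.40 ± 0.07, adjusted p = 4.2e-05). Elovl6 was at 4.3, 4.45 and 4.12 CPM (-1.31 ± 0.17, adjusted p = 2.2e-07), every library under every unstimulated one. Scd1 was at 1.21 ± 0.276 CPM (-0.95 ± 0.37, adjusted p = 0.042), a call lost without unstimulated replicate 1, 2 or 3 or IL-4 replicate 1 or 2 (-1.03 to -0.81, adjusted p = 0.052 to 0.15). Fasn was at 86.8, 78.5 and 82.3 CPM (-0.27 ± 0.09, adjusted p = 0.022), a call lost without unstimulated replicate 1 or 2 or IL-4 replicate 2 or 3 (-0.27 to -0.18, adjusted p = 0.052 to 0.18). Acaca was at 32.2, 31.5 and 31.6 CPM (0.04, interval -0.17 to 0.24).

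Among sterol genes under IL-4 at 18 h, Stard4 was at 20.5, 18.2 and 21.2 CPM (-0.72 ± 0.11, adjusted p = 2e-06) and Idi1 at 12.5, 11 and 15.1 CPM (-0.63 ± 0.15, adjusted p = 0.0011), both without overlap with unstimulated libraries. Sc5d fell by 0.93 ± 0.14 (adjusted p = 2.5e-06) and Msmo1 by 0.56 ± 0.10 (adjusted p = 1.7e-05). Hsd17b7 was at 7.77, 8.68 and 8.54 CPM (-0.50 ± 0.16, adjusted p = 0.012), a call lost without unstimulated replicate 1 (-0.46, adjusted p = 0.051). Fdft1 fell (-0.34), a call lost when replicate 3 of both groups was left out (-0.23, adjusted p = 0.07). The squalene epoxidase Sqle was at 34, 35.6 and 37.6 CPM (-0.06, interval -0.31 to 0.19). Cyp51 was at 26.5, 32.8 and 34.1 CPM (-0.17, interval -0.41 to 0.07) and Fdps at 28.2, 32.7 and 36 CPM (-0.20, interval -0.44 to 0.04). These 3 enzymes did not pass the test. Srebf2 was at 107, 95.7 and 105 CPM (-0.22 ± 0.08, adjusted p = 0.031), a call lost without unstimulated replicate 1 or 3 or IL-4 replicate 2 (-0.22 to -0.17, adjusted p = 0.064 to 0.15). Srebf1 (75.2, 77.8 and 68.9 CPM, -0.17) and Insig1 (31.6, 33.8 and 33.5 CPM, -0.17) did not pass. The IL-4 response differed between times for 5 genes, against 21.3% of all genes (10% higher and 11.3% lower): lower at 18 h for Fads2, Elovl6, Sc5d and Stard4, and higher for Scd2.

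Whether IL-4 and the LPS stimuli differed at 18 h was tested by comparing them directly, a pair of comparisons chosen after seeing the data. Against LPS, IL-4 gave 21 genes higher and 1 lower, where 32.8% and 32.1% of all genes were (64.8% called in all), and 29 higher and 0 lower under library-size scaling, where 6664 and 2349 of all 12765 genes were. Against LPS with IFNg it gave 21 higher and 1 lower, where 37.2% and 36.6% of all genes were (73.9% called in all), and 27 higher and 0 lower under library-size scaling, where 7248 and 2780 of all 12765 genes were. The gene lower with IL-4 was Mvd in the first (-0.55) and Insig1 in the second (-0.25), the latter call being lost without LPS with IFNg replicate 3 or IL-4 replicate 1 (-0.24 to -0.23, adjusted p = 0.063 to 0.069). Insig1 stood at 0.22 there under library-size scaling. These 2 comparisons share the IL-4 libraries. Stard4 was 4.46-fold higher with IL-4 than with LPS (2.16 ± 0.16, adjusted p = 6.5e-14) and 9.34-fold higher than with LPS and IFNg (3.22 ± 0.18, adjusted p = 3.6e-17). Idi1 differed by 2.25 ± 0.23 (adjusted p = 2.1e-10) and 2.66 ± 0.24 (adjusted p = 7.2e-12), and Fasn by 2.01 ± 0.12 (adjusted p = 7.6e-17) and 2.67 ± 0.12 (adjusted p = 9.8e-20). Dhcr7, which rose with IL-4 and fell with the LPS stimuli, differed by 1.21 ± 0.12 (adjusted p = 6.5e-11) and 2.24 ± 0.13 (adjusted p = 1.1e-16). Scd2 differed by 1.53 ± 0.08 (adjusted p = 1.5e-17) and 1.04 ± 0.08 (adjusted p = 9.5e-14). Sc5d, which fell under all 3 stimuli, gave 0.23 and -0.25 and was not called in either.

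From 1 h to 18 h without a stimulus, 5 of the 30 genes rose and 1 fell, against 3.97% and 7.93% of all genes (11.9% called in all). Under library-size scaling 7 rose and 1 fell, and the calls over all genes went from 507 higher and 1012 lower to 1004 and 676. Those calls, 1519 in all, were 861 without unstimulated 18 h replicate 1, 981 without 18 h replicate 2, 988 without 1 h replicate 1 and 868 without 1 h replicate 3; 4, 5, 5 and 4 of the 30 genes were called in these fits. The risers were Fdps (0.55 ± 0.12, adjusted p = 0.0016), Fasn (0.53 ± 0.10, adjusted p = 0.00021), Stard4 (0.51 ± 0.11, adjusted p = 0.0014), Elovl6 (0.57 ± 0.16, adjusted p = 0.018) and Idi1 (0.52 ± 0.15, adjusted p = 0.02). Fdft1 fell (-0.36 ± 0.08, adjusted p = 0.0019). The Idi1 call was lost without unstimulated 18 h replicate 1 or 2 or unstimulated 1 h replicate 3 (0.43 to 0.49, adjusted p = 0.087 to 0.13). The Elovl6 call was lost without unstimulated 18 h replicate 1 or unstimulated 1 h replicate 1 or 3 (0.45 to 0.56, adjusted p = 0.064 to 0.15).

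Of 35 other genes of lipid metabolism listed beside the 30, all were tested. With LPS at 18 h 13 rose and 16 fell, against 31.7% and 31.3% of all genes. The counts were 13 and 18 with LPS and IFNg, against 36% and 36.1%, and with IL-4 7 rose and 9 fell, against 19.1% and 20.1%. At 1 h the counts were 3 and 4 with LPS (10.7% and 11.4% of all genes), 5 and 3 with LPS and IFNg (14.7% and 14.6%), and 2 and 1 with IL-4 (3.22% and 3.21%). Of the 4 genes listed for SREBP processing and its restraint, 3 (Scap, Mbtps1 and Mbtps2) fell in each LPS group at 18 h. Over all genes 31.3% fell with LPS and 36.1% with LPS and IFNg. Scap, the escort, went from 51.3 ± 1.59 CPM to 28 ± 3.56 with LPS (-0.87 ± 0.10, adjusted p = 1e-08) and 24.1 ± 2.65 with LPS and IFNg (-1.08 ± 0.11, adjusted p = 6.3e-11). The first protease, Mbtps1, changed by -0.94 ± 0.09 (adjusted p = 6.4e-11) and -1.65 ± 0.10 (adjusted p = 8.2e-17), and the second, Mbtps2, by -0.56 and -0.73, both called. Insig2, the second retention protein, rose with LPS and IFNg (0.59 ± 0.11, adjusted p = 8.8e-06; 0.06, adjusted p = 0.64, under library-size scaling) and was at 0.18 with LPS (adjusted p = 0.16). With IL-4 at 18 h, Scap fell by 0.35 ± 0.10 (adjusted p = 0.0037), Insig2 stood at 0.28 (adjusted p = 0.037), a call lost without unstimulated replicate 1, 2 or 3 or IL-4 replicate 1 or 3 (0.25 to 0.30, adjusted p = 0.054 to 0.1), and Mbtps1 and Mbtps2 did not pass.

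Of 17 further genes known as SREBP targets, 9 fell and 4 rose with LPS at 18 h, and 11 fell and 3 rose with LPS and IFNg. Over all genes 31.3% fell and 31.7% rose in the first comparison, and 36.1% and 36% in the second. Acsl3, an acyl-CoA synthetase, fell by 2.39 and 2.67, and the phosphatidate phosphatase Lpin1 by 1.98 and 2.93. The genes that rose with LPS were Acss2, Me1, Slc25a1 and the fatty acid binding protein gene Fabp5 (1.53; 0.15 with LPS and IFNg, uncalled, and -0.39 there under library-size scaling). The acetyl-CoA synthetase Acss2 rose from 5.03 ± 0.573 CPM to 18.2 ± 4.56 with LPS (1.84 ± 0.20, adjusted p = 9.9e-10) and 63.2 ± 6.41 with LPS and IFNg (3.64 ± 0.17, adjusted p = 2.1e-19). The malic enzyme Me1 rose by 1.23 and 1.67, both called. The citrate carrier Slc25a1 was called higher in both (0.29 and 0.61), but under library-size scaling it stood at -0.14 and 0.07, neither called, and the LPS call was lost without unstimulated replicate 2 or LPS replicate 2 (0.20 to 0.21, adjusted p = 0.05 to 0.052). With IL-4, Me1 fell by 0.71 (adjusted p = 0.0018) and Acss2 did not pass (-0.28). Aldoc fell under all 3 stimuli at 18 h (-1.22, -1.11 and -1.64).

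The 6 genes listed on the LXR side were Nr1h2, Nr1h3, Abca1, Abcg1, Mylip and Ch25h, of which Abca1 and Abcg1 encode exporters. In each LPS group at 18 h, 5 of these 6 rose and 0 fell, where 31.7% and 36% of all genes rose. Under library-size scaling Nr1h2 was not called with LPS (0.06, adjusted p = 0.43) and Mylip was lower there (-0.30). Nr1h3, which encodes an LXR, went from 28.3 ± 3.15 CPM to 218 ± 13.9 with LPS (2.94 ± 0.10, adjusted p = 1.5e-23) and 99.1 ± 9.01 with LPS and IFNg (1.81 ± 0.10, adjusted p = 1.2e-17). The exporter gene Abca1 rose with LPS (1.59 ± 0.21, adjusted p = 3.2e-06), was not called with LPS and IFNg (0.41, adjusted p = 0.093) and fell with IL-4 (-1.07 ± 0.22, adjusted p = 0.00071). Abcg1, another exporter, rose under all 3 stimuli (0.80, 1.49 and 0.89). Ch25h makes 25-hydroxycholesterol, an oxysterol that holds back SREBP processing. Ch25h was at 0.518 ± 0.487 CPM in unstimulated cells at 1 h (11 counts over 3 libraries) and at 35.2 ± 0.826 with IL-4 (5.91 ± 0.29, adjusted p = 1.6e-16). At 1 h Ch25h was at 3.72 ± 0.83 CPM with LPS and 6.28 ± 1.41 with LPS and IFNg. At 18 h it was at 2.01 ± 0.828 CPM without stimulus, 9.42 ± 2.08 with LPS and 58.8 ± 10.1 with LPS and IFNg (4.87 ± 0.22, adjusted p = 3.5e-19). With IL-4 at 18 h it was at 4.39 ± 0.939 CPM. Lpl, the lipoprotein lipase, fell from 7083 ± 71 CPM to 1062 ± 68 with LPS (-2.74 ± 0.07, adjusted p = 1.5e-25) and 892 ± 56.1 with LPS and IFNg (-2.99 ± 0.08, adjusted p = 8.5e-27), and was at 7568 ± 314 CPM with IL-4.

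**Figure D5:**
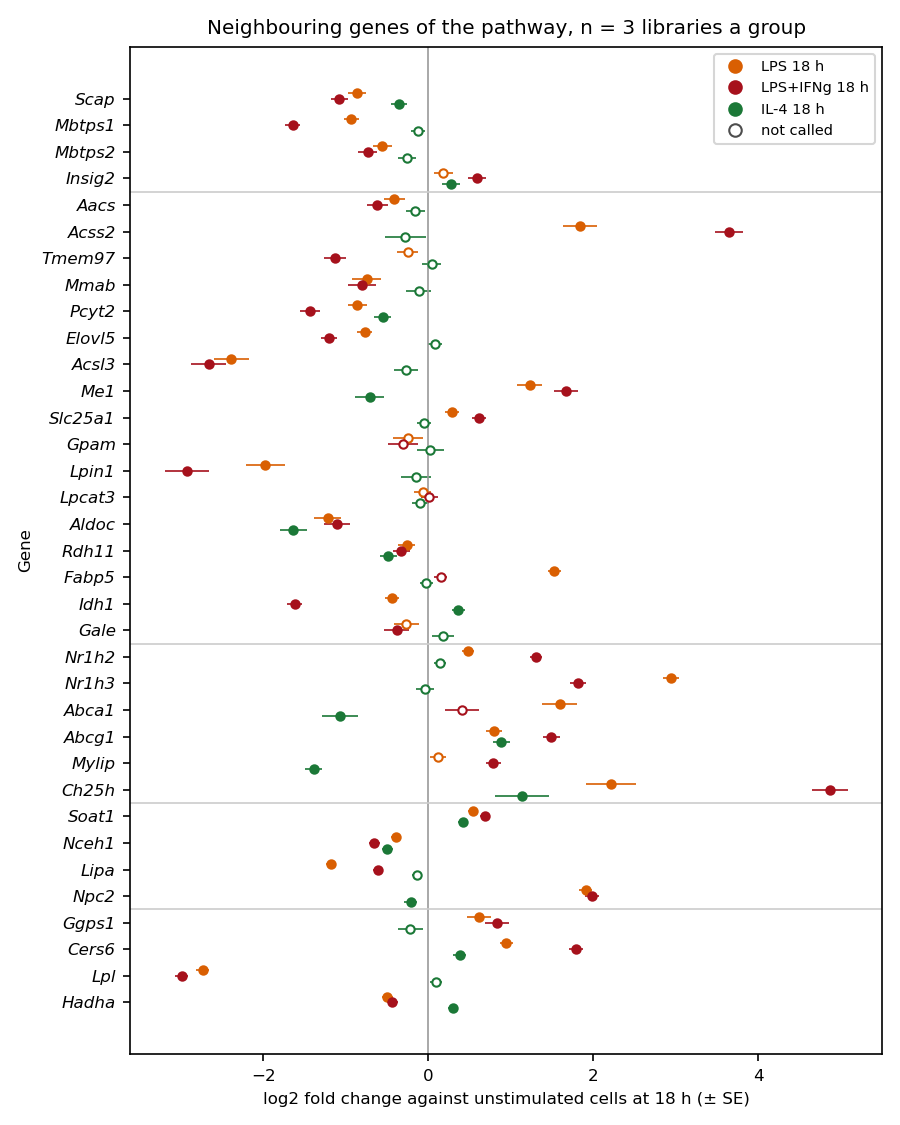
Log2 fold change ± SE at 18 h (horizontal axis) of the 35 neighbouring genes (vertical axis, grouped by role) with LPS, LPS with IFNg and IL-4 against unstimulated cells, 3 libraries a group; open points were not called. Acss2 and Ch25h lie farthest right with LPS and IFNg (3.64 and 4.87), and Lpl and Lpin1 farthest left (-2.99 and -2.93).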

How the data were processed

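Libraries of mRNA were made with a stranded TruSeq mRNA kit and sequenced on an Illumina HiSeq, per the labels' protocols. The values are raw read counts per gene as deposited by the authors, 1 file a library, with 43629 genes, of which 42462 identifiers matched a gene name (GENCODE M21). STAR, featureCounts, DESeq2, deepTools and GRCm38 are named per the submitters' processing notes; their versions, the strand setting and the treatment of reads with several matches are not given in the sources used here. Samples were grouped by their labels.

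All 24 libraries were fitted together with edgeR 4.0.16 in R 4.3.3 (TMM scaling, a minimum count of 10 in filterByExpr, robust quasi-likelihood, 1 coefficient a group), with Benjamini-Hochberg adjustment over the 12765 genes that passed and a threshold of 0.05. Intervals of log2 differences are 95% intervals. DESeq2 1.42.0 and limma-voom (limma 3.58.1) were alternatives, as were other scalings, filters and thresholds, a replicate block and fits without single libraries. The test was run on simulated counts first. The labels do not say what the replicate numbers share. Between unstimulated cells and IL-4 at 1 h, the deviations of same-numbered libraries from their group means all correlated above 0.1 (0.133 to 0.231). So did those between LPS and IL-4 at 18 h (0.125 to 0.427), where 3 of 6 libraries correlated best with their own number. In the other 26 of 28 pairs of groups not all correlations were above 0.1. Over all pairs of groups, 34 of 84 same-numbered pairs of libraries correlated above 0.1 (median 0.072). Of pairs with different numbers, 6 of 168 did (median -0.034). No main fit used pairing, and the replicate block was an alternative only. The 30 genes and all lists were chosen with earlier results of these data known. All listed genes could be named; per-library values were given for the 6 sterol enzymes and 5 fatty acid enzymes of at least 5 CPM with the largest fold changes and for the 4 regulators. The comparisons of IL-4 with LPS and with LPS and IFNg were added after seeing the data. CPM values were computed from the deposited counts with TMM-scaled library sizes. Intervals of count ratios cover counting error only.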

Additional observations from a re-analysis of the deposited data

Results flagged for a closer look

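The responses to LPS at 18 h and at 1 h differed for 24 of the 30 genes by the edgeR interaction contrast, against 54.2% of all genes. Among them, 3 were called higher at 1 h and lower at 18 h with LPS: Hmgcs1 (difference between times -1.246 on the log2 scale), Srebf2 (-1.375) and Insig1 (-1.257). The Srebf2 rise at 1 h was not called under library-size scaling (0.11, adjusted p = 0.35) or without LPS replicate 1 (0.25, adjusted p = 0.069). For LPS with IFNg the responses at the 2 times differed for 22 genes, against 63.9% of all genes. Elovl6 was higher at 1 h and lower at 18 h (-4.338), though its rise at 1 h was not called under library-size scaling. Scd2 was lower at 1 h and higher at 18 h (1.21), and its 18 h value was lower, not higher, under library-size scaling (-0.29). For IL-4 the responses differed between times for 5 genes, against 21.3% of all genes.

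Between stimuli at 18 h, Dhcr7 was called higher with IL-4 and lower with LPS, a difference of 1.207 on the log2 scale, and 2.236 against LPS with IFNg. Scd2 was called higher with IL-4 and lower with LPS (1.532), the fall with LPS being lost without LPS replicate 2 (-0.16, adjusted p = 0.11) or unstimulated replicate 2 (-0.20, adjusted p = 0.076).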

How the results depend on the processing

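Over the alternatives run, the number of the 30 genes called was 23 to 30 for LPS at 18 h, 23 to 28 for LPS with IFNg at 18 h and 10 to 16 for IL-4 at 18 h. Of the values of the 30 genes under all alternatives, 6466 kept their side of the threshold, 164 lost a call and 102 gained one. The 6466 include values called in neither fit, whose sign may have changed. A further 11 turned while called in at least 1 fit, all 11 under library-size scaling. Scaling by library size alone called 14 genes for LPS at 1 h, 20 for LPS with IFNg at 1 h and 8 for the IL-4 difference between times. Beside those 11, it turned 4 values of other listed genes (Slc25a1, Mylip, Lpcat3 and Fabp5). The turned values were Ebp (-0.38), Slc25a1 (-0.14) and Mylip (-0.30) for LPS at 18 h, Srebf2 (-0.22) and Acly (-0.25) for LPS with IFNg at 1 h, and Mvd (-0.08), Insig1 (-0.46), Scd2 (-0.29), Lpcat3 (-0.52) and Fabp5 (-0.39) for LPS with IFNg at 18 h. It also turned Ebp (0.28) for IL-4 against LPS, and Mvd (0.35), Lss (0.39), Msmo1 (0.38) and Insig1 (0.22) for IL-4 against LPS with IFNg. That scaling moved the median of all genes by -0.19, -0.41, -0.25 and -0.54 for LPS at 1 h and 18 h and LPS with IFNg at 1 h and 18 h, and by 0.36 and 0.49 for the last 2 comparisons. The all-gene calls went from 2824 to 4437 for LPS at 1 h (1366 higher and 1458 lower, then 897 and 3540) and from 3740 to 6334 for LPS with IFNg at 1 h (1873 and 1867, then 1087 and 5247). An adjusted p below 0.01 left 3 of the 6 genes called for IFNg added to LPS at 1 h. Over all genes 1504 were called there at 0.05, and their number at 0.01 is not given here. In other comparisons the stricter threshold left 809 of 1519 of all genes for unstimulated cells at 18 h against 1 h. It left 1659 of 2720 for the IL-4 difference between times. Leave-one-out fits gave 7 to 12 genes for LPS with IFNg at 1 h and 0 to 1 for IL-4 at 1 h. With the replicate number as a block, 1 gene was called for IL-4 at 1 h (Scd2, adjusted p = 0.049), 9 of the single-gene values recomputed gained a call and 0 lost one. In 11 of 28 pairs of groups every library correlated best with its own number, a hint from the data and not from the design. Where not stated otherwise, the cause was not tested. Scd1, Fads2 and Elovl6 had so few counts in the LPS groups at 18 h that depth limits their values.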

Other observations

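Among genes of lipid metabolism not described above, Cers6, a ceramide synthase, was higher at 18 h under all 3 stimuli, by 0.95 with LPS, 1.79 with LPS and IFNg and 0.38 with IL-4. Pcyt2, of phosphatidylethanolamine synthesis, was lower under all 3 (-0.86, -1.43 and -0.55 in that order). Npc2, which carries cholesterol out of lysosomes, was higher with LPS (1.91) and LPS with IFNg (1.98). Lipa, the lysosomal acid lipase, was lower in both (-1.18 and -0.61). Idh1, the cytosolic isocitrate dehydrogenase, was lower with LPS (-0.44) and LPS with IFNg (-1.62) and higher with IL-4 (0.36). These values are log2 fold changes against unstimulated cells, each with an adjusted p below 0.05 by edgeR.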
